A study of Mus musculus with 2 samples.

Results

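The mitochondrial ribosomal proteins were taken as the protein-coding genes whose GENCODE M21 symbol begins with Mrpl or Mrps followed by a digit. There were 78 such genes among the 34745 genes of the count table, 49 named Mrpl and 29 named Mrps. RNA-seq was done on gastrocnemius, a calf muscle made mostly of fast fibres, from mice of strain C57BL/6 at an age of 8 weeks. The series holds 2 libraries, 1 of genotype Cry2scko and 1 of genotype Cry2flox/flox, called Cry2flox here. Cry2 encodes cryptochrome 2, a repressor of the circadian clock, and Cry2flox/flox animals carry recombination sites in both copies of the gene. What scko stands for is not spelled out, and no Cre line or promoter is named. The labels give neither the hour of collection nor whether several animals were pooled. With 1 library of each genotype there is no replicate, so no value below has an error between animals, no p-value is given, and every ratio describes these libraries only.

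Mitochondria keep a small genome of their own, and its messenger RNAs encode core subunits of the respiratory chain and of ATP synthase. They are read by a dedicated ribosome whose RNAs come from the mitochondrial genome and whose proteins are all encoded in the nucleus, made in the cytosol and imported. The large subunit holds the peptidyl transferase centre and the peptide exit tunnel, which faces the inner membrane, and the small subunit decodes the messenger RNA. Some of its proteins descend from bacterial ribosomal proteins and others are found only in mitochondrial ribosomes. Muscle fibres are rich in mitochondria, and defects of several of these proteins cause cardiomyopathy or muscle disease in humans.

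The promoters of 4 members are printed here because the results below turn on these genes: Mrpl53 and Mrpl27 had the highest and the lowest ratio between the libraries, and Mrpl42 and Mrpl12 had the highest deposited FPKM values, an order that depends on the gene models for Mrpl42. Each window is a RefSeq sequence on GRCm38.p6, read 5′ to 3′ on the strand of the gene, with 250 bases before the start of transcription and 50 bases from it on. Capitals mark matches, on either strand, to the NRF1 letters GCGCANGCG, the ETS letters CCGGAAG and the YY1 letters AAGATGGC, where N is any base. The Mrpl53 window is chr6:83108858-83109157 on the plus strand and holds an ETS match on each strand. The Mrpl27 window is chr11:94653541-94653840 on the plus strand and holds 1 ETS match. The Mrpl42 window is chr10:95501900-95502199 on the minus strand and holds a YY1 match just after the start. The Mrpl12 window is chr11:120484387-120484686 on the plus strand and holds 1 NRF1 match on the opposite strand.
Mrpl53: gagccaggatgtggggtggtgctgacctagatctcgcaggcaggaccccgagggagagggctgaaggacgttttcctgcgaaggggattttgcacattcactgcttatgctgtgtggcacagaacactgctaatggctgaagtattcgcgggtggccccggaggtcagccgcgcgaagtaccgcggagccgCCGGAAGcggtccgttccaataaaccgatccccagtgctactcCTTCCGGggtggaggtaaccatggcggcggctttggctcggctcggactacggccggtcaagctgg
Mrpl27: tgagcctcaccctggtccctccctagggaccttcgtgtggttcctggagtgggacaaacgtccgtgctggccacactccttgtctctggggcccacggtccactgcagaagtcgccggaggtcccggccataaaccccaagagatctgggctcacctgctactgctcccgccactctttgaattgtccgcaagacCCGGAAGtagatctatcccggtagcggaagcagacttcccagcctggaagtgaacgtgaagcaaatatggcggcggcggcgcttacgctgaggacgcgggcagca
Mrpl42: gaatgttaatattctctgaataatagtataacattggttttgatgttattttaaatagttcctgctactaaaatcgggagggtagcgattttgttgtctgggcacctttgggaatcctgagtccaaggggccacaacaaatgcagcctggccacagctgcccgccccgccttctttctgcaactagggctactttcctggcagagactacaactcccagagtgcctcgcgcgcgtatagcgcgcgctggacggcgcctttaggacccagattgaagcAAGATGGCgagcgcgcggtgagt
Mrpl12: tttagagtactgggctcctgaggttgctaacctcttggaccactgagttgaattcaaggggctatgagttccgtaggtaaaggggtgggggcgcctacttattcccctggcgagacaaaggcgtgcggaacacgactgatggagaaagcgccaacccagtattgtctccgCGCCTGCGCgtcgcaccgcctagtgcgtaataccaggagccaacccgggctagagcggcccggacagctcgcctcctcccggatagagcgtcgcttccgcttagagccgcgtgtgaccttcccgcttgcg

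The total count was 16423884 reads in Cry2scko and 18909433 reads in Cry2flox. Cry2 itself, on the minus strand at chr2:92403646-92434043 (GRCm38), had 133 reads in Cry2scko and 676 reads in Cry2flox, which was 4.46-fold lower with a log2 ratio of -2.16 (95% counting interval -2.44 to -1.89). The 6 markers of skeletal muscle fibres summed to 131935 CPM (counts scaled to a common library size) in Cry2scko and 137469 CPM in Cry2flox, so the defining markers of the labelled tissue were present. Other markers differed between the libraries. The 7 slow-fibre markers summed to 2658 CPM in Cry2scko and 1255 CPM in Cry2flox, with 5 higher by the 2-fold rule applied to every gene. The 9 lymphocyte markers summed to 152 CPM in Cry2scko and 62.3 CPM in Cry2flox, with 8 higher by that rule, and the 5 tendon markers summed to 73.0 CPM in Cry2scko and 164 CPM in Cry2flox, with 4 lower. Fibroblast markers summed to 996 CPM in Cry2scko and 1579 CPM in Cry2flox, with 1 of 5 lower, and adipocyte markers to 8.46 CPM in Cry2scko and 14.01 CPM in Cry2flox, with 1 of 4 lower. None of the 5 macrophage and 4 endothelial markers passed the rule, and no marker of any list was at 0 reads. That rule called 3.37% of all genes compared higher and 1.51% lower. The part of these markers in the ratios of the ribosomal protein genes was not tested. In bulk tissue fewer cells of a type and less RNA per cell cannot be told apart.

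Expression of the mitochondrial ribosomal protein genes was close to equal in the Cry2scko and Cry2flox libraries, with 1 exception, Mrpl53, most of whose exon sequence also belongs to another gene. All 78 members had reads in both libraries, 110 to 2534 reads with a median of 406.5 in Cry2scko and 60 to 3070 reads with a median of 471.5 in Cry2flox. All 78 reached the mean of 1 CPM required for the comparison, as did 12832 genes in all. Ratios are Cry2scko over Cry2flox, on the log2 scale, after scaling by the trimmed mean of M-values (TMM). Their intervals are exact 95% intervals that cover counting error only, and reads copied by PCR, with no molecular identifiers, do not each stand for a separate molecule. To be called higher or lower, a gene needed both a 2-fold ratio and an interval that did not hold a ratio of 1.

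By that rule 1 of 78 members was higher in Cry2scko, or 1.28%, and 0 were lower. Over all genes compared the same rule called 3.37% higher and 1.51% lower. Among the 8883 genes whose mean CPM lay within the range of the members it called 1.76% higher and 0.799% lower. At 1.5-fold the members' counts were again 1 and 0, where 6.56% of all genes compared were higher and 4.35% lower. A milder line was drawn at a ratio of 5 to 4 in either direction, with the same condition on the interval. It was passed by 3 members on the higher side and 3 on the lower side, where 11.1% of all genes compared were higher and 8.85% lower, and 9.93% higher and 8.79% lower among the genes in the same CPM range. The members past this line were Mrpl53, Mrpl41 and Mrpl13 on the higher side and Mrpl27, Mrpl19 and Mrpl40 on the lower side. Without any fold threshold, the interval did not hold a ratio of 1 for 28 members, 15 above and 13 below, together 35.9%. That share was 33.5% over all genes compared and 34.4% in the same CPM range, so the members' share was near the background.

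**Figure D1:**
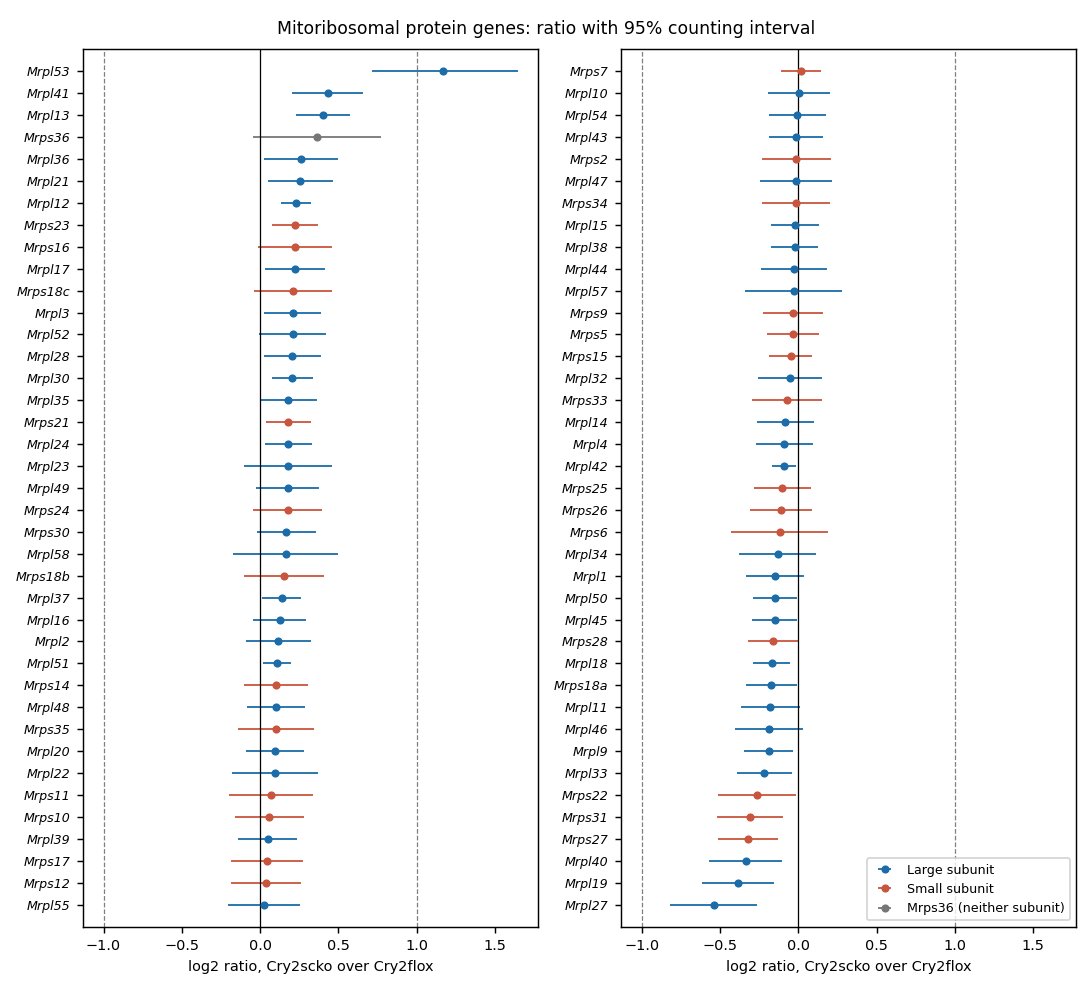
Log2 ratio of Cry2scko over Cry2flox for each of the 78 mitochondrial ribosomal protein genes, ordered from highest to lowest, with points for the ratio, bars for the exact 95% counting interval, colours for the subunit and dashed lines at 2-fold. Mrpl53 at 1.17 lies past the 2-fold line, and the other genes lie between -0.54 and 0.43.

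The median log2 ratio of the members was 0.02, with quartiles of -0.10 and 0.18, and the median of all genes compared was 0.00, with quartiles of -0.17 and 0.18. The members spanned -0.54 to 1.17, and 41 of 78 lay above a ratio of 1, where 49.5% of all genes compared did. A ratio within 5 to 4 was found for 71 members, or 91.0%, against 80.1% of the genes in the same CPM range and 71.8% of all genes compared. The standard deviation of the log2 ratios across members was 0.22, and 0.18 without Mrpl53, against 0.38 across genes in the same CPM range. Genes are not replicates, so these spreads describe the gene sets. The counting interval reached a median of 0.19 to each side of the ratio of a member, and 0.22 for genes in the same CPM range. Counting error was thus larger in that set, and its part in the spreads was not tested.

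**Figure D2:**
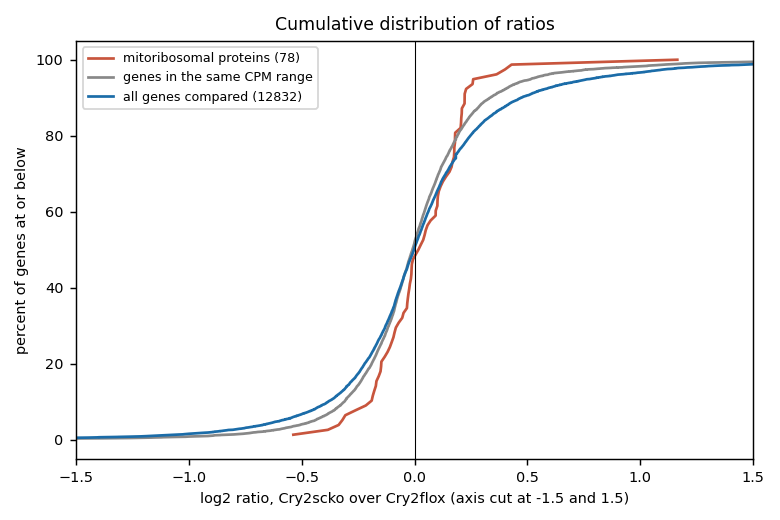
Cumulative percent of genes at or below each log2 ratio of Cry2scko over Cry2flox, for the 78 mitochondrial ribosomal protein genes, the genes in the same CPM range and all 12832 genes compared, with the axis cut at 1.5 on each side. The curve of the ribosomal protein genes is the steepest of the 3, since 91.0% of them lie within a ratio of 5 to 4.

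Summed over all 78 members, 39114 reads fell on these genes in Cry2scko and 43750 in Cry2flox. That was 0.238% of the reads in Cry2scko and 0.231% in Cry2flox, a log2 ratio of 0.02 (0.00 to 0.04). The 51 genes of the large subunit took 28248 reads in Cry2scko and 31454 in Cry2flox, with a log2 ratio of 0.03 (0.00 to 0.05). The 26 genes of the small subunit took 10756 reads in Cry2scko and 12199 in Cry2flox, with a log2 ratio of 0.00 (-0.04 to 0.04). Reads on large-subunit genes were 2.63 times those on small-subunit genes in Cry2scko and 2.58 times in Cry2flox. The balance of reads between the subunits was thus nearly the same in both libraries.

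Divided by origin, the 30 large-subunit proteins with a bacterial counterpart had a median log2 ratio of 0.06, and 17 of them lay above a ratio of 1. The 21 large-subunit proteins classed as mitochondria-specific, among them Mrps18a, had a median of -0.01, with 10 above. The 16 small-subunit proteins with a bacterial counterpart had a median of 0.04, with 10 above, and a range of -0.16 to 0.22. The 10 small-subunit proteins classed as mitochondria-specific, among them Mrps18b, had a median of -0.09, with 3 above. Their summed reads were 3721 in Cry2scko and 4388 in Cry2flox, a log2 ratio of -0.05 (-0.12 to 0.01). Mrps18a and Mrps18b are paralogues of the bacterial protein S18, so this class is not limited to proteins without a bacterial relative. None of the small-subunit genes passed the line at 5 to 4, which 11.1% of all genes compared passed on the higher side and 8.85% on the lower. Mrps27, 1.2485-fold lower, lay just short of it. With size factors from DESeq2 its log2 ratio was -0.328, past that fold. Differences between these sets were not tested. One gene of the naming rule, Mrps36, encodes a subunit of the oxoglutarate dehydrogenase complex and belongs to neither subunit. It had 110 reads in Cry2scko and 97 in Cry2flox, a log2 ratio of 0.36 whose interval (-0.04 to 0.77) held a ratio of 1.

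The stalk of the large subunit recruits translation factors to the ribosome. Mrpl12, the stalk protein that in humans also binds the mitochondrial RNA polymerase, had 1771 reads in Cry2scko and 1716 in Cry2flox, or 107 CPM in Cry2scko and 91.4 CPM in Cry2flox. Its log2 ratio was 0.23 (0.13 to 0.33), short of the line at 5 to 4. Mrpl10, which anchors Mrpl12 at the stalk base, had 410 reads in Cry2scko and 464 in Cry2flox and a log2 ratio of 0.00. Mrpl11, the neighbouring base protein, had 417 reads in Cry2scko and 536 in Cry2flox and a log2 ratio of -0.18 (-0.37 to 0.01). Mrpl54, a mitochondria-specific protein of this region, had 468 reads in Cry2scko and 534 in Cry2flox and a log2 ratio of -0.01. The fifth gene of the list is Mrpl53, and the list's median was 0.00.

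Mrpl53, a mitochondria-specific protein of the stalk region, lies on the plus strand at chr6:83109040-83109939. It had 119 reads or 7.20 CPM in Cry2scko and 60 reads or 3.20 CPM in Cry2flox, which was 2.24-fold higher, a log2 ratio of 1.17 (0.71 to 1.64). Its deposited level was 5.16 FPKM (fragments per kilobase of gene model, scaled to depth) in Cry2scko and 2.26 FPKM in Cry2flox. It had the fewest reads of all members in Cry2flox. In the annotation, 695 bases or 88.0% of its exon sequence also belong to Gm42688, a protein-coding model on the same strand at chr6:83101617-83109939. The promoter window printed above lies inside Gm42688.

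Gm42688 had 333 reads in Cry2scko and 384 in Cry2flox, with a log2 ratio of -0.02 (-0.24 to 0.19). Of the reads assigned to the pair, 26.3% were given to Mrpl53 in Cry2scko (exact Clopper-Pearson 95% interval 22.3 to 30.6) and 13.5% in Cry2flox (10.5 to 17.05). The pair together had 452 reads in Cry2scko and 444 in Cry2flox, which is a log2 ratio of 0.21 (0.02 to 0.40) or 1.16-fold. Gm42688 also shares 2288 exon bases with Ccdc142, which is 72.1% of the exon sequence of Ccdc142. That gene lies on the same strand at chr6:83101601-83108394, almost wholly within the span of Gm42688. Ccdc142 had 2 reads in Cry2scko and 31 in Cry2flox. The 3 genes summed to 454 reads in Cry2scko and 475 in Cry2flox, a log2 ratio of 0.12 (-0.07 to 0.31). These sums were added after the data were seen. How the authors' counting divides reads on shared exon bases is not given in the sources used here, so the 2.24-fold value of Mrpl53 is uncertain.

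**Figure D3:**
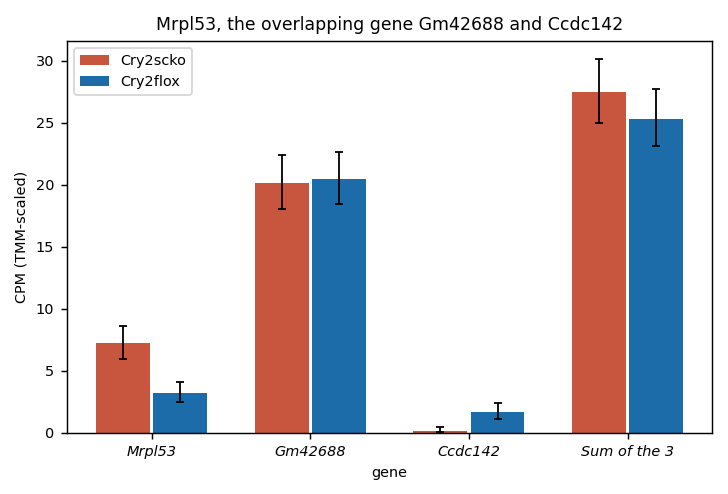
TMM-scaled CPM of Mrpl53, Gm42688, Ccdc142 and their sum in Cry2scko and Cry2flox, as bars from 0 with exact 95% counting intervals. Mrpl53 stood at 7.20 CPM in Cry2scko and 3.20 CPM in Cry2flox, while the sum stood at 27.4 CPM in Cry2scko and 25.3 CPM in Cry2flox.

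The central protuberance sits at the top of the large subunit and contacts the small one, and its mitochondrial form is built largely of proteins without a bacterial counterpart. Its 5 listed genes had a median log2 ratio of -0.17, with 1 above a ratio of 1, and 0 passed the 2-fold rule. The rule called 3.37% of all genes compared higher and 1.51% lower, so a 0 among 5 genes says little. Mrpl40, which in humans lies in the chromosomal region deleted in DiGeorge syndrome, had 260 reads in Cry2scko and 373 in Cry2flox and the lowest log2 ratio of the 5 at -0.34 (-0.57 to -0.11). Mrpl46 had 309 reads in Cry2scko and 399 in Cry2flox (log2 ratio -0.19), and Mrpl18, which is conserved in bacteria, had 1045 reads in Cry2scko and 1334 in Cry2flox (log2 ratio -0.17). Mrpl38 was nearly equal, with 662 reads in Cry2scko and 764 in Cry2flox (log2 ratio -0.02). Mrpl48 was the 1 gene above, with 482 reads in Cry2scko and 510 in Cry2flox (log2 ratio 0.10). The intervals of Mrpl40 and Mrpl18 lay below a ratio of 1, and those of the other 3 held it.

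The rim of the exit tunnel faces the inner membrane, where new chains are inserted. Its 6 listed genes had a median log2 ratio of 0.04, and 0 passed the 2-fold rule. With so few genes a 0 says little, as the rule called 3.37% of all genes compared higher and 1.51% lower. Mrpl23 (210 reads in Cry2scko, 211 in Cry2flox) and Mrpl24 (727 reads in Cry2scko, 729 in Cry2flox) both had a log2 ratio of 0.18, and Mrpl22 had 218 reads in Cry2scko and 232 in Cry2flox with a log2 ratio of 0.09. Mrpl44, a protein with a fold like that of RNase III that is mutated in human cardiomyopathy, had 344 reads in Cry2scko and 398 in Cry2flox (log2 ratio -0.03). Mrpl47 had 300 reads in Cry2scko and 344 in Cry2flox (log2 ratio -0.01). Mrpl45, which ties the ribosome to the membrane, had 725 reads in Cry2scko and 914 in Cry2flox and the lowest log2 ratio at this site, -0.15 (-0.29 to -0.01).

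Mammals have 3 paralogues of the bacterial protein S18, each of which holds a place of its own in the ribosome. Mrps18c is the counterpart in the small subunit and had 272 reads in Cry2scko and 267 in Cry2flox (log2 ratio 0.21, -0.04 to 0.46). Mrps18b, also of the small subunit, had 253 reads in Cry2scko and 258 in Cry2flox (log2 ratio 0.15, -0.10 to 0.41). Mrps18a, which is part of the large subunit despite its name, had 559 reads in Cry2scko and 715 in Cry2flox (log2 ratio -0.17, -0.33 to -0.01). The large-subunit paralogue was thus on the other side of a ratio of 1 from the small-subunit pair, and each gene stayed within a ratio of 5 to 4.

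After Mrpl53, the highest ratios were those of Mrpl41 and Mrpl13. Mrpl41, a mitochondria-specific protein of the large subunit encoded on chromosome 2, had 349 reads or 21.1 CPM in Cry2scko and 294 reads or 15.7 CPM in Cry2flox, a log2 ratio of 0.43 (0.20 to 0.66). It shares no exon bases with another gene. Mrpl13, a conserved large-subunit protein, had 613 reads or 37.1 CPM in Cry2scko and 527 reads or 28.1 CPM in Cry2flox, a log2 ratio of 0.40 (0.23 to 0.57). Some of its exon bases are shared with Mtbp, which starts on the other strand. Mrps36, described above, came next. Mrpl36, a small protein of the large subunit, had 308 reads in Cry2scko and 292 in Cry2flox (log2 ratio 0.26, 0.02 to 0.50), and Mrpl21 had 399 reads in Cry2scko and 379 in Cry2flox (log2 ratio 0.26, 0.05 to 0.46).

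The lowest ratio was that of Mrpl27, the counterpart of a bacterial protein that reaches toward the peptidyl transferase centre. At chr11:94653767-94660089 on the plus strand, it had 177 reads or 10.7 CPM in Cry2scko and 292 reads or 15.6 CPM in Cry2flox, which was 1.45-fold lower with a log2 ratio of -0.54 (-0.82 to -0.26). It shares exon bases with Eme1, which had 0 reads in both libraries. Mrpl19, a conserved protein at the interface between the subunits, had 263 reads in Cry2scko and 390 in Cry2flox (log2 ratio -0.38, -0.62 to -0.16). Mrpl40 followed. The next 3 were mitochondria-specific proteins of the small subunit. Mrps27 had 390 reads in Cry2scko and 553 in Cry2flox (log2 ratio -0.32, -0.51 to -0.13). Of its exon bases 24.2% are shared with 6430562O15Rik on the other strand, which had 17 reads in Cry2scko and 21 in Cry2flox. Mrps31 had 311 reads in Cry2scko and 437 in Cry2flox (log2 ratio -0.31, -0.52 to -0.09). Mrps22, mutated in a human disease of heart and muscle, had 229 reads in Cry2scko and 312 in Cry2flox (log2 ratio -0.26, -0.52 to -0.01).

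Levels of different genes were compared per length, with the deposited FPKM values. They ranged from 1.12 to 231.7 FPKM in Cry2scko and from 0.990 to 243.8 FPKM in Cry2flox, and 9 of the 10 highest members were the same in both libraries. Mrpl42, a mitochondria-specific large-subunit protein on the minus strand at chr10:95480805-95501940, stood far above the rest with 231.7 FPKM in Cry2scko and 243.8 FPKM in Cry2flox. It also had the most reads, 2534 in Cry2scko and 3070 in Cry2flox, with a log2 ratio of -0.09. Mrpl12 came second with 58.0 FPKM in Cry2scko and 48.8 FPKM in Cry2flox, and Mrps28, a conserved small-subunit protein, had 44.7 FPKM in Cry2scko and 49.2 FPKM in Cry2flox. Mrpl18 had 28.5 FPKM in Cry2scko and 31.6 FPKM in Cry2flox, and Mrps16, a conserved small-subunit protein whose loss causes respiratory chain disease in humans, had 32.3 FPKM in Cry2scko and 27.3 FPKM in Cry2flox. The order of these last genes differed between the libraries.

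At the low end, Mrpl58, a peptidyl-tRNA hydrolase built into the large subunit that releases stalled chains, had 1.12 FPKM in Cry2scko and 0.990 FPKM in Cry2flox. Mrps17 had 1.35 FPKM in Cry2scko and 1.29 FPKM in Cry2flox, Mrps10 had 1.67 FPKM in Cry2scko and 1.58 FPKM in Cry2flox, and Mrps35 had 1.72 FPKM in Cry2scko and 1.58 FPKM in Cry2flox. Mrps36 had 2.54 FPKM in Cry2scko and 1.95 FPKM in Cry2flox. The span of these levels depends on the gene models. The length implied by count and FPKM was 0.154 to 2.73 times the merged exon length in GENCODE M21, with a median of 1.26, more than 2 times for 10 members and less than 0.5 times for 8. For Mrpl42 it was 666 bases against 3682 exon bases, and for Mrps16 it was 566 against 2875.

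Per kilobase of M21 exon the members spanned 1.93 to 70.4 CPM per kilobase in Cry2scko, with the total count as divisor, and Mrpl12 was first and Mrpl42 the fifth. Of the 10 highest by FPKM, 6 were among the 10 highest by exon length. The length cancels in the ratio between the libraries, so the ratios above do not depend on it.

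**Figure D4:**
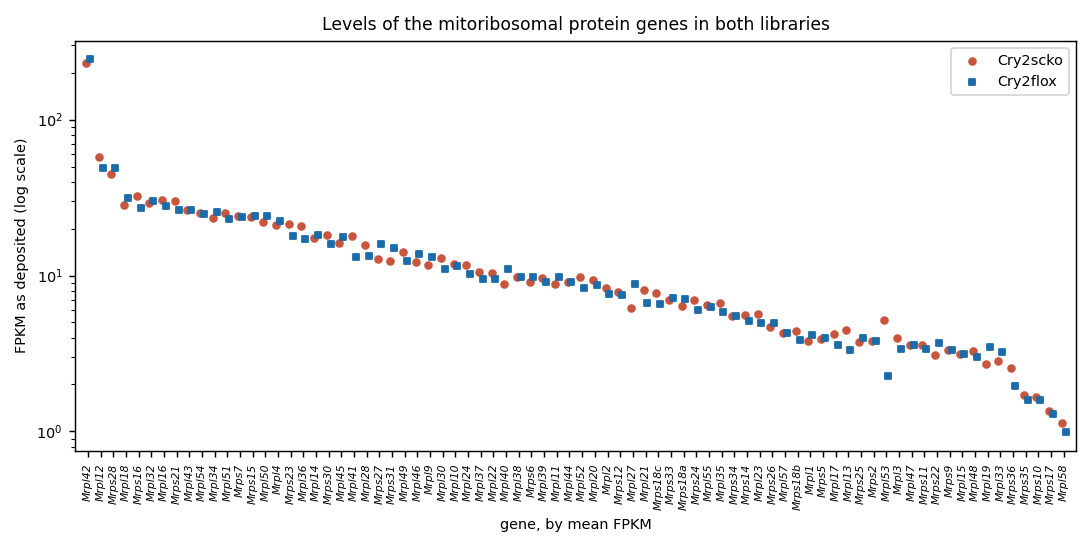
Deposited FPKM of each of the 78 mitochondrial ribosomal protein genes on a log axis, with circles for Cry2scko and squares for Cry2flox, ordered by mean FPKM. Mrpl42 stands apart at 231.7 FPKM in Cry2scko and 243.8 FPKM in Cry2flox, and Mrpl53 has the widest gap between the libraries.

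Several features of the genes bear on how well their reads can be assigned. Exon bases were shared with another annotated gene, on either strand, by 33 members, whose median log2 ratio was 0.02, and the 45 that share none had a median of 0.03. Coding sequences of 18 members had 25 processed pseudogene copies at 95% identity or more over at least 100 bases. Of these copies 1 was in the count table, with 0 reads in both libraries, and the others were not analysed here. Reads of these members and their copies cannot be told apart where the sequences are identical. Among the members described above, Mrpl41, Mrpl42, Mrpl21, Mrpl22, Mrpl23, Mrpl27, Mrpl48, Mrps10, Mrps16, Mrps18b and Mrps36 have such copies.

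The members lie on 17 chromosomes, with 11 on chromosome 11 and 8 on chromosome 17, and many start close to the start of a gene on the other strand. A protein-coding gene started on the other strand within 1000 bases for 33 of 78 members, or 42.3%, and for 1912 of 12174 protein-coding genes compared, or 15.7%. The distance was taken to either side, so these pairs include genes that overlap at their starts, such as Mrpl46 and Mrps11. The partner had a mean of 1 CPM or more for 28 members, and 0 of these partners passed the 2-fold rule. That rule called 3.37% of all genes compared higher and 1.51% lower, so a 0 here says little. The pairs named here were chosen after their values were seen. Mrpl46 and Mrps11 form a pair of members, Mrps11 being a conserved protein of the small subunit with 223 reads in Cry2scko and 241 in Cry2flox (log2 ratio 0.07). Mrpl36 is paired with Ndufs6, a subunit of respiratory complex I, which had 1236 reads in Cry2scko and 1162 in Cry2flox (log2 ratio 0.27). Mrps12 is paired with Sars2, the mitochondrial seryl-tRNA synthetase, which had 174 reads in Cry2scko and 230 in Cry2flox (log2 ratio -0.22).

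RefSeq promoter windows were matched to 69 members, 75 windows in all. No window was matched for Mrpl4, Mrpl13, Mrpl15, Mrpl19, Mrpl38, Mrpl54, Mrps28, Mrps34 and Mrps35. Motifs were searched on both strands as exact letters, and the share of windows is given for the members, for the 12310 windows of protein-coding genes compared and for all 32851 windows. NRF1, GABP and YY1 are transcription factors known to bind promoters of nuclear genes for mitochondrial proteins, and GABP binds ETS letters. The ETS letters CCGGAAG were in 34.7% of member windows, in 16.8% of the windows of genes compared and in 8.86% of all windows. The YY1 letters AAGATGGC were in 16% of member windows, in 4.32% of the windows of genes compared and in 2.75% of all windows. The NRF1 letters GCGCANGCG were in 21.3% of member windows, in 13% of the windows of genes compared and in 6.25% of all windows. At least 1 of these 3 was in 44 member windows, or 58.7%, and in 29.8% of the windows of genes compared. The letters of different motifs may overlap, as each was counted by itself.

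The SP1 letters GGGCGG were in 52.0% of member windows, in 61.8% of the windows of genes compared and in 35.7% of all windows. The CCAAT letters were in 40.0% of member windows, in 37.1% of the windows of genes compared and in 37.4% of all windows, and TATAAA was in 6.67% of member windows, in 7.37% of the windows of genes compared and in 13.6% of all windows. The E-box CACGTG is bound by the clock activators CLOCK and BMAL1, through which cryptochromes act on it. It was in 9.33% of member windows, in 9.92% of the windows of genes compared and in 7.15% of all windows. The 7 member windows with an E-box came from 5 genes, because overlapping windows of Mrpl2 hold the same site and were each counted. The ERR letters TCAAGGTCA were in 0 of 75 member windows and 0.276% of the windows of genes compared, and the D-box letters TTANGTAA were in 0 of 75 member windows and 1.48% of the windows of genes compared. The median GC content was 58.7% in member windows, 60.7% in the windows of genes compared and 52.7% in all windows. Differences between these shares were not tested, and a match is a description of letters in this window.

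Matches to the ETS letters lay close to the start of transcription. Their median position was -17, counted from 0 at the start, and 28 of 31 matches lay within 100 bases of it. In the Mrpl53 window printed above they begin at -59 and -16, and in the Mrpl27 window the match begins at -55, so the members with the highest and the lowest ratio both hold these letters. The 12 YY1 matches had a median position of 15 and 8 of them lay after the start, as in Mrpl42, where the match begins at 27. The 25 NRF1 matches had a median position of -49, and in Mrpl12 the match begins at -80. The median log2 ratio was 0.10 for the 26 members with ETS letters and 0.03 for the 43 without, and 0.14 for the 5 with an E-box and 0.02 for the 64 without. With NRF1 letters it was -0.01 for 16 members, and 0.06 for the 53 without. For SP1 letters the medians were 0.02 with and 0.09 without, and for TATAAA, in 5 members, 0.10 with and 0.03 without. For YY1 letters they were 0.05 with and 0.04 without, and for CCAAT 0.04 with and 0.05 without. Differences between these medians were not tested.

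**Figure D5:**
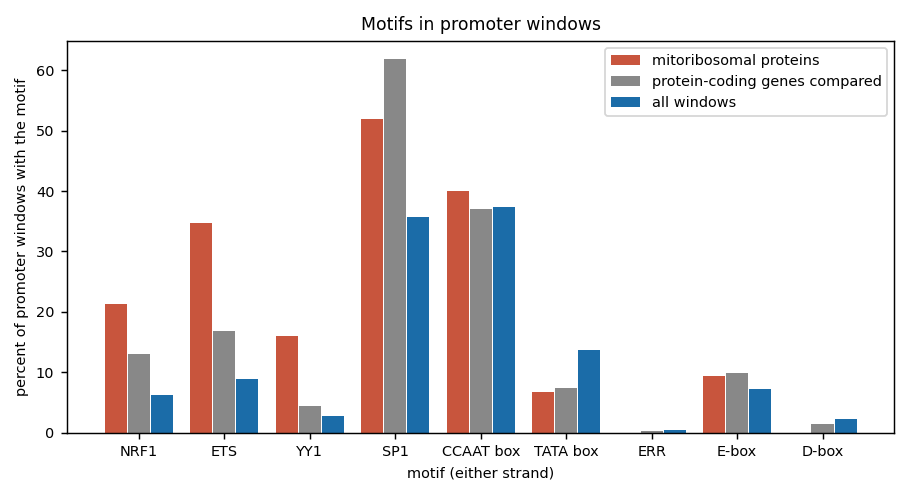
Percent of promoter windows that hold each motif on either strand, for mitochondrial ribosomal proteins, protein-coding genes compared and all windows. ETS letters were in 34.7% of member windows and YY1 letters in 16%. The E-box share was 9.33%, with overlapping windows of Mrpl2 that hold the same site each counted.

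The rest of the mitochondrial translation apparatus was described with lists of known members. Over all genes compared the 2-fold rule called 3.37% higher and 1.51% lower, so a count of 0 in lists of this size says little. Of 5 mitoribosomal proteins with other symbols, 0 passed the 2-fold rule, and their median log2 ratio was -0.09. Gadd45gip1, a large-subunit protein, had 393 reads in Cry2scko and 391 in Cry2flox (log2 ratio 0.19), and Aurkaip1, a small-subunit protein, had 325 reads in Cry2scko and 405 in Cry2flox (log2 ratio -0.13). Of 26 assembly and rRNA modification factors, 0 passed the rule, with a median of 0.03. Eral1, a chaperone of the small-subunit rRNA, had 285 reads in Cry2scko and 238 in Cry2flox (log2 ratio 0.44, 0.19 to 0.70). Malsu1, which keeps an immature large subunit from joining the small one, had 227 reads in Cry2scko and 355 in Cry2flox (log2 ratio -0.46, -0.71 to -0.22). These were the ends of that list, and neither reached 1.5-fold.

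Of 16 translation factors and activators, 0 passed the rule, with a median log2 ratio of 0.02. Among all genes compared 3.37% were higher and 1.51% lower by this rule, so counts in such short lists say little. Mtfmt, which formylates the initiator tRNA, had 91 reads in Cry2scko and 85 in Cry2flox (log2 ratio 0.28), and Mtif2, an initiation factor, had 428 reads in Cry2scko and 566 in Cry2flox (log2 ratio -0.22). Of 17 mitochondrial aminoacyl-tRNA synthetases 1 was higher and 0 were lower, with a median of 0.11. The gene past the rule was Pars2, the prolyl-tRNA synthetase, at few reads: 49 in Cry2scko and 11 in Cry2flox, which was 4.89-fold higher (log2 ratio 2.29, 1.38 to 3.43). Mars2, for methionine, had 206 reads in Cry2scko and 184 in Cry2flox (log2 ratio 0.35), and Nars2, for asparagine, had 78 reads in Cry2scko and 127 in Cry2flox (log2 ratio -0.52, -0.95 to -0.10). The lowest ratio in the list was that of Wars2, for tryptophan, named after its values were seen, since its mean lay under 5 CPM. It had 57 reads in Cry2scko and 112 in Cry2flox, which was 1.72-fold lower (log2 ratio -0.79, -1.28 to -0.32).

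Of 10 genes of mitochondrial transcription and genome maintenance, 0 passed the rule, with a median log2 ratio of 0.03. Here too the shares over all genes compared, 3.37% higher and 1.51% lower, leave little to read from a 0. Mterf2 had 207 reads in Cry2scko and 205 in Cry2flox (log2 ratio 0.20), and Tefm, the elongation factor of the mitochondrial RNA polymerase, had 118 reads in Cry2scko and 167 in Cry2flox (log2 ratio -0.32, -0.67 to 0.03). Of 9 regulators of nuclear genes for mitochondrial proteins, 0 passed the rule, with a median of -0.01. Pprc1, a coactivator of the PGC-1 family, had 277 reads in Cry2scko and 250 in Cry2flox (log2 ratio 0.33), and Gabpb1, a subunit of GABP, had 154 reads in Cry2scko and 205 in Cry2flox (log2 ratio -0.23). The 13 mitochondrially encoded proteins, the products of this ribosome, had a median of 0.04, and 0 passed the rule. The highest was mt-Nd6, the 1 protein gene on the light strand, with 2459 reads in Cry2scko and 2253 in Cry2flox (log2 ratio 0.31), and the lowest was mt-Nd5, with 284417 reads in Cry2scko and 342143 in Cry2flox (log2 ratio -0.08). The mitochondrial ribosomal RNAs were not analysed here.

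The other gene sets most like this one were the cytosolic ribosomal proteins and the nuclear subunits of the respiratory chain and ATP synthase. The 79 cytosolic ribosomal protein genes compared had a median log2 ratio of 0.15, with 59 or 74.7% above a ratio of 1, and 0 were higher and 1 was lower by the 2-fold rule. The 80 nuclear genes of the respiratory chain and ATP synthase had a median of 0.10, with 58 or 72.5% above, and 0 passed the rule. Of all genes compared, 3.37% were higher and 1.51% lower by it. The mitochondrial ribosomal proteins had a median of 0.02, with 52.6% above. The medians of all 3 sets lay within a ratio of 5 to 4, and the differences between them were not tested.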

How the data were processed

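Total RNA of gastrocnemius was sequenced after library preparation with the VAHTS Universal V6 kit, per the labels' protocols. CASAVA, HISAT2 2.0.4, StringTie 1.3.0 and the build GRCm38 are named in the submitters' processing notes. The read counter, annotation release and strand setting are not given in the sources used here. The authors deposited whole-number counts per Ensembl gene for both libraries and an FPKM file for each, per the file headers. In 16284 genes with reads in both libraries, 100% of the deposited FPKM values gave equal gene lengths for the 2 libraries (tolerance 0.1 percent). Of 12561 genes with over 20 reads in Cry2flox, 98.1% implied a whole number of bases within 0.1 base when the total count was the divisor.

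GENCODE M21 gave gene names, positions and overlaps of exons. Counts were scaled with TMM factors of 1.01 for Cry2scko and 0.993 for Cry2flox (edgeR 4.0.16, R 4.3.3). For the log2 ratio, 0.5 reads were added per gene and library. Clopper-Pearson intervals were computed with scipy 1.17.1. Genes with a mean of 1 CPM or more were compared. The procedure was tested on simulated counts. Copies were sought with BLAST 2.17.0 (95% identity over 100 bases or more).

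The members and the lists were chosen with earlier results of these data known. Named members are those past the 2-fold rule, the 6 highest and 6 lowest ratios, the 5 highest and 5 lowest by FPKM, the site lists and Mrps36. Of each pathway list, named genes are those past the rule and the highest and lowest ratio at a mean of 5 CPM or more. The alternatives scaled by the total count, by size factors from DESeq2 1.42.0, or by a trimmed total that leaves out mitochondrial genes and the top 20 genes. Others were deposited FPKM with 0.1 added, other filters, 5 reads added, other fold thresholds, and members that share no exon bases. Promoter motifs were searched as exact letters, and the NRF1 letters were shortened by 1 base after a first search had been seen.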

Additional observations from a re-analysis of the deposited data

How the results depend on the processing

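The count of members past the 2-fold rule was 1 higher and 0 lower under the total-count, DESeq2 and trimmed total-count scalings, with the deposited FPKM values, without a filter, at a mean of 5 CPM or more, with 5 reads added and at 1.5-fold. For the deposited FPKM values only the fold part of the rule was applied, since they carry no counting interval. The 2 settings of the filter could not alter this count, since the lowest mean of a member was 5.20 CPM. Without the members that share exon bases, 0 of 45 were higher, because Mrpl53 is one of those left out. At a ratio of 5 to 4, 3 were higher and 3 were lower. The median log2 ratio of the members ranged from 0.01 with DESeq2 size factors to 0.05 with trimmed totals, while the median of all genes ranged from -0.01 to 0.03. The number of members above a ratio of 1 ranged from 40 to 49 over the scalings, so the side of 1 on which members near it lie depends on the scaling. Of 384 alternative values for 51 named genes, 378 stayed within the counting interval of the main value. This includes the values under other filters and without genes that share exon bases. Those settings only choose genes and cannot change a ratio, so their values stayed the same by construction. A scaling moves every log2 ratio by the same amount. Mrpl10 went from 0.0048 to 0.0250 (total count), -0.0030 (DESeq2) and 0.0335 (trimmed total). Against a median interval reach of 0.19, most values under a scaling also had to stay inside. The deposited FPKM values rest on the same counts and totals, so they nearly repeat the total-count scaling. The 378 values are thus no measure of stability. A change of sign was seen in 9 values of 5 members whose main log2 ratio was 0.027 or less in size (Mrpl10, Mrpl38, Mrpl44, Mrpl47 and Mrpl54), each under a scaling or the FPKM alternative, and in 0 values of genes past the 2-fold rule. The 6 that moved were those of Mrpl53 summed with its neighbours (0.21 and 0.12) and those of mt-Nd5. The latter came from the alternative scalings and the FPKM alternative (-0.09 to -0.05). No paired analysis was possible because each genotype has 1 library. Depth limits most single members: the counting interval alone reaches 0.19 to each side at the median, and variation between animals could not be measured.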
